A study of Mus musculus with 6 samples.

Results

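The miR-106b-25 and miR-106a-363 clusters are 2 copies of the same ancestral group of miRNAs, and 10 of their mature miRNAs were described across hippocampal neural stem cells (NSCs). The members were taken by name: both arms of miR-106b, miR-93 and miR-25, which lie together in an intron of Mcm7, and miR-106a-5p, miR-18b-5p, miR-20b-5p and miR-363-3p of the cluster on the X chromosome. All 10 were found among the 1522 rows of the deposited table, of which 1147 carry a miRBase name. The cells came from hippocampi of C57BL/6J males on postnatal day 3. In the gestational dexamethasone exposure group (GDE, titled IUGR), dams had received 1 mg/kg dexamethasone, a synthetic glucocorticoid, by daily intraperitoneal injection from embryonic day E14.5 to E18.5. Dams of the Control group (titled Normal) were given saline instead. Each group had 3 small RNA libraries from independent litters, per the design text.

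miRNAs of these clusters are cut from 1 primary transcript per cluster, and each hairpin gives a 5p and a 3p arm, of which 1 is usually kept as the guide and the other mostly degraded. The guide pairs with mRNAs through its seed, bases 2 to 8, so miRNAs with the same seed are expected to share many targets. Mcm7, the host of miR-106b, miR-93 and miR-25, encodes a subunit of the helicase that licenses DNA replication, and in mice the miR-106b-25 cluster is known to promote proliferation of neural stem and progenitor cells and to repress the cell-cycle inhibitor Cdkn1a. The X-linked copy is known in mice as a site of retroviral insertion in T-cell tumours. A further copy, miR-17-92, is needed for normal growth of the embryo.

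The Mcm7 cluster covered chr5:138165321-138165818 on the minus strand (GRCm38.p6), with its 3 hairpins within 498 bases. In the GENCODE M21 annotation all 3 hairpins lay in intron 13 of an Mcm7 transcript with 15 exons, while Mir93 and Mir25 also overlapped an exon of a transcript annotated as a retained intron. The X cluster covered chrX:52741693-52742567 on the minus strand, with 6 hairpins within 875 bases. No GENCODE host transcript spanned them among the exons near the cluster, and exons farther away were not searched. Besides the 4 members the X cluster holds Mir19b-2 and Mir92-2. Their main products miR-19b-3p and miR-92a-3p are also made from miR-17-92 and cannot be assigned to 1 locus.

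The mature sequences are shown because the seed decides which members belong together and the few bases outside it decide how well sequencing can separate them. All 10 members matched the RefSeq miRNA table (GRCm38.p6), as did 960 of the 1147 named rows. The seed is in capitals, and each sequence runs 5′ to 3′. In this list, the prefix mmu (mouse) marks members. The first 4 share the seed AAAGUGC with miR-17-5p and miR-20a-5p of miR-17-92.
mmu-miR-106b-5p (Mcm7 cluster): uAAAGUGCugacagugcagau
mmu-miR-93-5p (Mcm7 cluster): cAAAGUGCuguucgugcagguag
mmu-miR-106a-5p (X cluster): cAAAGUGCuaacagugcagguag
mmu-miR-20b-5p (X cluster): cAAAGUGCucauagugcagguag
miR-17-5p (miR-17-92): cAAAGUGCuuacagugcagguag
miR-20a-5p (miR-17-92): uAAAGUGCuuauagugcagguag
mmu-miR-18b-5p (X cluster): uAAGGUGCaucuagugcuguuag
miR-18a-5p (miR-17-92): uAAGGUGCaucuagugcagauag
mmu-miR-25-3p (Mcm7 cluster): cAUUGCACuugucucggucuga
mmu-miR-363-3p (X cluster): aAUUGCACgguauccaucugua
miR-92a-3p (miR-17-92 and X cluster): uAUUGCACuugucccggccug
miR-92b-3p (its own locus): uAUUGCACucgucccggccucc
miR-32-5p (its own locus): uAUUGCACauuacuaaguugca

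The passenger arms each carry a seed that no other matched row shares.
mmu-miR-106b-3p: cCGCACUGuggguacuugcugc
mmu-miR-93-3p: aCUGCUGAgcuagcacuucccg
mmu-miR-25-5p: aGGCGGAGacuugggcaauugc

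Counted from 1 at the 5′ end, miR-106a-5p differs from miR-17-5p by the single substitution U10A. miR-20b-5p differs from miR-20a-5p by U1C and U10C, and miR-18b-5p differs from miR-18a-5p by A18U and A20U. miR-93-5p differs from miR-20a-5p at 4 of 23 positions and miR-106b-5p differs from miR-17-5p at 3 of the 21 positions they share. How the authors assigned reads between such near-identical miRNAs is not given in the sources used here, so levels of the X cluster members are uncertain.

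Levels are given as RPM, reads scaled to the same library total, and as tags, the whole reads recovered from these values. The libraries rested on about 11751000 to 12385000 tags, of which 2927136 to 3343808 fell on rows of the table, so that a miRNA with no tag could still have been present at 3 tags, which is about 0.25 RPM. This floor and the binomial interval given for miR-106a-5p cover counting error only, while intervals from limma rest on the spread between libraries. Fewer cells of a type and less RNA per cell cannot be told apart in these bulk samples. miRNAs of neural progenitors (miR-9-5p, miR-9-3p, miR-92b-3p, miR-130b-3p) were present in every library and summed to 18026 to 19241 RPM in GDE and 18030 to 19910 RPM in Control, and the 5 neuronal markers, among them miR-124-3p, summed to 1934 to 2398 RPM in GDE and 2098 to 2200 RPM in Control. All 4 microglia and leukocyte markers had the higher mean in GDE; they summed to 315 to 477 RPM in GDE and 107 to 256 RPM in Control, with miR-142a-5p at 0 in Control replicate 1. The 3 erythroid markers summed to 73.8 to 93.5 RPM in GDE and 34.98 to 69.0 RPM in Control. Of these only miR-451a separated the groups, at a mean of 65.3 RPM in GDE and 34.5 RPM in Control. For miR-144-3p and miR-486a-5p the groups overlapped. The summed oligodendrocyte, endothelial, mural and choroid plexus markers overlapped between the groups. Within these lists, endothelial miR-126a-5p was at 16.9 to 20.7 RPM in GDE and 11.2 to 15.2 RPM in Control. Mural miR-145a-5p was at 4.15 to 5.28 RPM in GDE and 2.42 to 3.23 RPM in Control. The other markers of these lists overlapped. Over all 649 miRNAs tested below, the groups did not overlap for 14.6%. The part of other cell types in the values below was not tested.

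The members of the 2 clusters stood at very different levels. The 6 Mcm7 members summed to 3691, 3666 and 3137 RPM in the GDE libraries and to 4710, 3963 and 3421 RPM in the Control libraries. The 4 X members summed to 5.51, 8.55 and 11.4 RPM in GDE and to 16.1, 10.9 and 6.72 RPM in Control. In every library the sum of the 6 Mcm7 members was thus at least 275.7 times that of the 4 X members, and at most 669.9 times. The miR-17-92 cluster, summed over its 12 rows, reached 3871 ± 455 RPM in GDE libraries and 4080 ± 1610 RPM in Control libraries (SD, n = 3 each), close in size to the Mcm7 sum. This sum counts miR-19b-3p and miR-92a-3p, which the X cluster also encodes, at means of 488 and 1982 RPM over all libraries. They are not in the X sum, and how much of them came from either locus cannot be told.

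**Figure D1:**
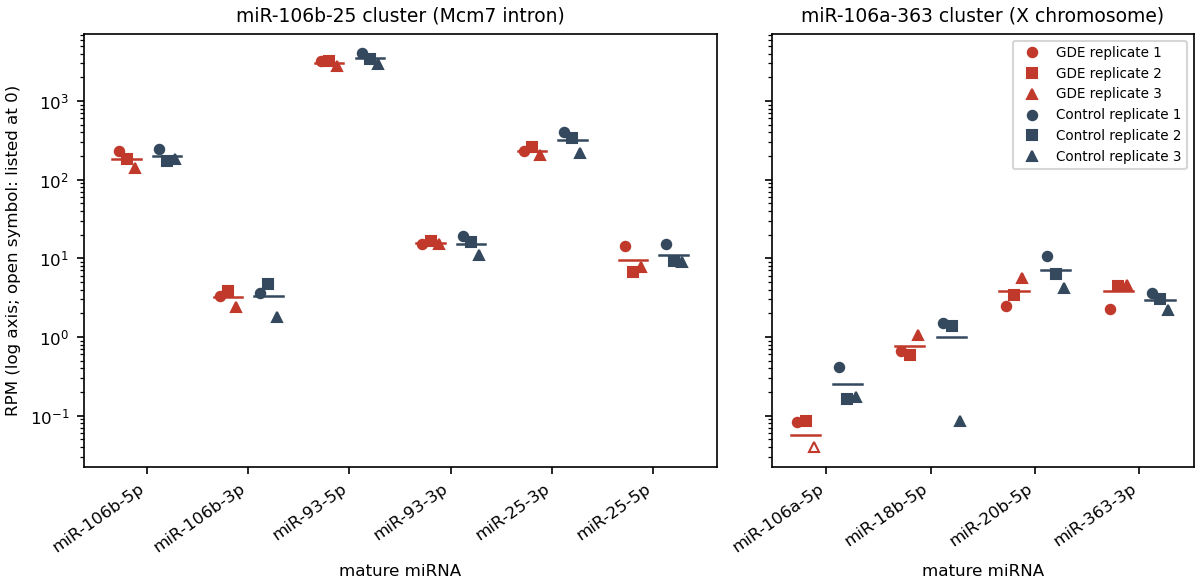
RPM of each member in each library on a log axis, with GDE in red left of Control in dark blue; horizontal lines are group means and symbols give the replicate number. The lowest miR-93-5p value is 2766 RPM, while the highest value of any X cluster member is 10.6 RPM, and miR-106a-5p is listed at 0 in GDE replicate 3 (open symbol, drawn below all values above 0).

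Within the Mcm7 cluster nearly all of the signal was miR-93-5p, a guide strand known to repress Cdkn1a. It had 3194, 3200 and 2766 RPM in the GDE libraries, against 4026, 3417 and 2997 RPM in the Control libraries. Control replicate 1 was the highest library, and the lowest Control library lay between GDE values, so the groups overlapped. miR-93-5p made up 85.5% to 88.2% of the cluster's RPM and ranked 23 among the 1147 named rows.

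miR-25-3p, the guide of the third hairpin, had 234, 259 and 205 RPM in GDE, against 401, 342 and 217 RPM in Control. Control replicates 1 and 2 lay above every GDE library, and Control replicate 3 lay among them. miR-106b-5p, which gives the cluster its name, had 229.8, 181 and 141 RPM in GDE, against 245, 174 and 186 RPM in Control, with GDE replicate 1 close to Control replicate 1 and the groups mixed. Across libraries miR-93-5p stood at 9.99 to 19.7 times either of the other guides of its cluster. The ratio of miR-93-5p to miR-106b-5p was 17.1 ± 2.94 in GDE and 17.4 ± 1.95 in Control, and that of miR-93-5p to miR-25-3p was 13.2 ± 0.700 in GDE and 11.3 ± 2.20 in Control (SD, n = 3 each). miR-25-3p exceeded miR-106b-5p in 6 of 6 libraries, at 1.02 to 1.97 times its level, although the ranges of their levels overlapped. How well each sequence was captured in the libraries was not tested, and bears on levels set side by side between miRNAs.

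The passenger arms were far lower. miR-93-3p had 15.4, 16.6 and 15.4 RPM in GDE and 19.3, 15.9 and 11.1 RPM in Control. The GDE libraries lay close together, inside the range of Control. miR-25-5p had 14.53, 6.602 and 7.83 RPM in GDE and 15.1, 9.29 and 8.94 RPM in Control, with replicate 1 the highest library of either group. miR-106b-3p had 3.34, 3.89 and 2.39 RPM in GDE and 3.57, 4.68 and 1.79 RPM in Control. It rested on 21 to 58 tags a library and its groups overlapped.

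The dominant arm was the 5p arm for miR-106b and miR-93 and the 3p arm for miR-25, in all 6 libraries. The hairpins show where the arms sit; mature arms are in capitals, shown for the most abundant hairpin of the Mcm7 cluster and for miR-25, whose dominant arm lies on the other side.
Mir93: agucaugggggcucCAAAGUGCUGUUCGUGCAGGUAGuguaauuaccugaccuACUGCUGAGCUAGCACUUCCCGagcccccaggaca
Mir25: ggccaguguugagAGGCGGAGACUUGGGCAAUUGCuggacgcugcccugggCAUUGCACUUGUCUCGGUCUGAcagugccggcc

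miR-93-5p stood at 208, 193 and 179 times miR-93-3p in GDE, and at 209, 215 and 271 times in Control. Every GDE library was below every Control library, by little between GDE replicate 1 and Control replicate 1. Over all 155 precursors with both arms past the filter, the groups did not overlap for 8.39%. Tested as log2 of 5p over 3p, with a pseudocount of 1 RPM on each arm, usage of the miR-93 arms differed by -0.25 (SE 0.20; 95% interval -0.72 to 0.22; limma, adjusted p = 0.753). For miR-106b the 5p arm was at 68.8, 46.4 and 58.8 times the 3p arm in GDE and at 68.5, 37.1 and 104 times in Control, a log2 difference of -0.14 (SE 0.33; 95% interval -0.90 to 0.62; limma, adjusted p = 0.953). For miR-25 the 3p arm was at 16.1, 39.2 and 26.2 times the 5p arm in GDE and at 26.5, 36.9 and 24.3 times in Control, and 5p over 3p differed by 0.20 on the log2 scale (SE 0.34; 95% interval -0.59 to 0.98; limma, adjusted p = 0.953). None of the 3 precursors passed the threshold of 0.05, and neither did any of the 155 (0%), of which 9 (5.81%) had an unadjusted p under 0.05, none of them a precursor of the Mcm7 cluster.

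Among the 4 X members, miR-20b-5p and miR-363-3p carried most of the low signal. miR-20b-5p, the sequence neighbour of miR-20a-5p, had 2.50, 3.39 and 5.69 RPM in GDE (30, 40 and 69 tags) and 10.6, 6.30 and 4.26 RPM in Control (128, 78 and 50 tags). Control replicates 1 and 2 were above every GDE library, and GDE replicate 3 was above Control replicate 3. miR-363-3p, which shares its seed with miR-25-3p, had 2.25, 4.49 and 4.62 RPM in GDE (27, 53 and 56 tags) and 3.57, 3.07 and 2.21 RPM in Control (43, 38 and 26 tags). Here GDE replicates 2 and 3 were the highest libraries, and GDE replicate 1 was close to the lowest.

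miR-18b-5p had 0.668, 0.592 and 1.07 RPM in GDE (8, 7 and 13 tags) and 1.50, 1.37 and 0.085 RPM in Control (18, 17 and 1 tags), so Control held both the highest libraries and the lowest. Its paralogue miR-18a-5p, reported to repress the glucocorticoid receptor in rat, averaged 294.6 ± 46.7 RPM in GDE and 378 ± 133 RPM in Control (SD, n = 3 each). miR-106a-5p, the first hairpin of the cluster, was at the limit of detection. It had 1, 1 and 0 tags in GDE and 5, 2 and 2 tags in Control, so each GDE library was below each Control library. Over all tested miRNAs the groups were apart in this direction for 10.0%. The ratio of summed tags, adjusted for depth, was 0.224 for GDE over Control, and the exact binomial 95% interval for counting ran between 0.0235 and 1.08. This interval contains equality, and miR-106a-5p did not reach the 1 RPM in 3 libraries needed for the test.

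The other products that can be assigned to the X cluster were at the same low level. miR-363-5p had 1 to 4 tags a library, miR-18b-3p 0 or 1, and miR-19b-2-5p 0 to 2. The 5p arms of the duplicated hairpins, unlike their 3p arms, can be told apart. miR-92a-2-5p of the X cluster had 2 tags in all 6 libraries together, against 7606 of miR-92a-1-5p from miR-17-92, and miR-19b-2-5p had 4 tags against 915 of miR-19b-1-5p. For the 3 members with a close relative in miR-17-92, tags over the 6 libraries came to 11 of miR-106a-5p against 16154 of miR-17-5p (0.0681%), 395 of miR-20b-5p against 54603 of miR-20a-5p (0.723%) and 64 of miR-18b-5p against 24253 of miR-18a-5p (0.264%). Whether some of these few tags are misread copies of the abundant relative was not tested. miR-363-3p has no relative that close: it differs from miR-25-3p at 13 of 22 positions.

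Ordered by mean level over the 6 libraries, miR-93-5p came first at 3267 RPM, then miR-25-3p at 276, miR-106b-5p at 193, miR-93-3p at 15.6, miR-25-5p at 10.4, miR-20b-5p at 5.46, miR-363-3p at 3.37, miR-106b-3p at 3.28, miR-18b-5p at 0.881 and miR-106a-5p at 0.152 RPM. Ranges over libraries were apart only after miR-93-5p, miR-106b-5p and miR-106b-3p. All other neighbours in this order overlapped, and miR-363-3p exceeded miR-106b-3p in 3 of 6 libraries. The most abundant X member, miR-20b-5p, was below the passenger strand miR-25-5p of the Mcm7 cluster in 6 of 6 libraries.

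Members that share a seed were then read as shares of their seed family, over the named rows with a matched sequence. For AAAGUGC, 6 rows summed to 4178 ± 137 RPM in GDE and 4713 ± 915 RPM in Control. The Mcm7 cluster gave 81.7%, 78.5% and 72.0% of this in GDE and 74.6%, 80.5% and 80.5% in Control. miR-17-92 gave 18.2% to 27.8% in GDE and 19.3% to 25.2% in Control, and the X cluster 0.062% to 0.141% in GDE and 0.112% to 0.193% in Control. miR-93-5p alone was thus the main source of this seed, at 68.5% to 76.6%.

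For AUUGCAC, 5 rows summed to 4956 ± 478 RPM in GDE and 5049 ± 2064 RPM in Control (SD, n = 3 each). Most came from outside the members, from miR-92b-3p and miR-92a-3p. miR-25-3p gave 4.35%, 5.11% and 4.63% in GDE and 5.67%, 6.66% and 7.36% in Control, every GDE library below every Control library. This split was noticed after the values were seen and the share was not tested. How often such shares separate the groups was not computed, while levels did so for 14.6% of all tested miRNAs. miR-92b-3p and miR-92a-3p, which fill most of the sum, were both lowest in Control replicate 3. miR-363-3p gave 0.042% to 0.104%. The third seed, AAGGUGC, was almost wholly miR-18a-5p, with miR-18b-5p at 0.202% to 0.312% in GDE and 0.030% to 0.428% in Control.

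**Figure D2:**
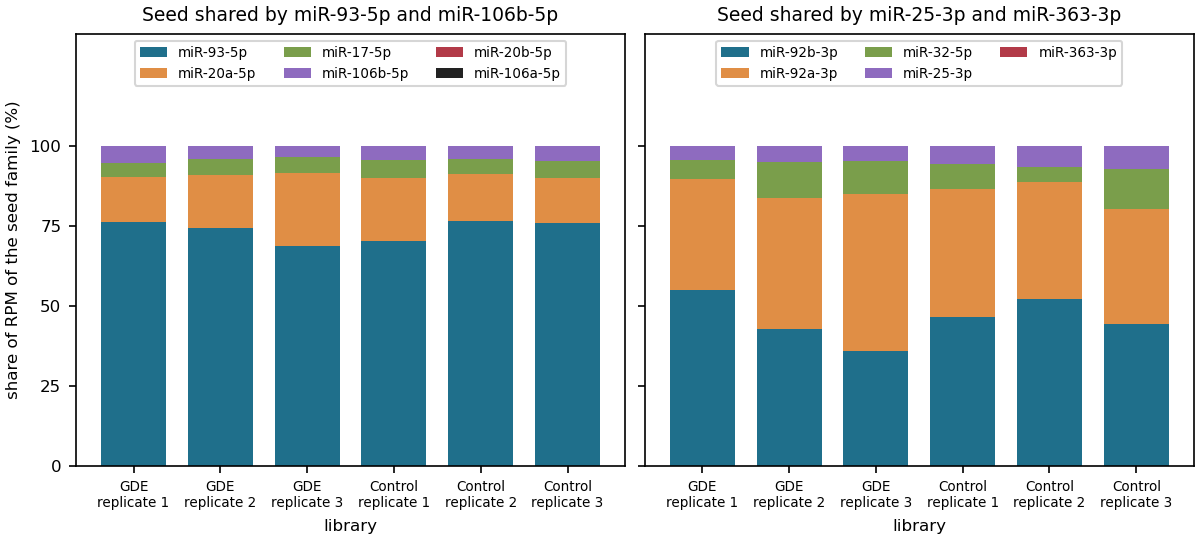
Share of each miRNA in the summed RPM of its seed family, in percent, one bar per library with GDE libraries left of Control libraries. In the left panel miR-93-5p fills 68.5% to 76.6% of the bar; in the right panel miR-25-3p is the top segment at 4.35% to 7.36%, and X cluster members are too low to be seen in either.

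The comparison of GDE with Control asks whether prenatal dexamethasone was followed by other levels of these proliferation-linked miRNAs in NSCs after birth. None of the 9 members that passed the filter of 1 RPM in 3 libraries differed between the groups in limma on log2(RPM + 1), adjusted over all 649 tested miRNAs, where 0.308% were called, 0.154% as higher and 0.154% as lower in GDE. None had an unadjusted p under 0.05 either, against 8.63% of all tested miRNAs. Of these 9, 7 had a negative log2 fold and 2 a positive one, with a median of -0.15, and over all tested miRNAs 61.2% were negative with a median of -0.07. None of the 9 had groups that did not overlap, against 14.6% of all tested miRNAs.

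With all libraries and a pseudocount of 1 RPM, the largest log2 fold was that of miR-20b-5p, at 3.86 ± 1.65 RPM over GDE libraries and 7.06 ± 3.26 RPM over Control libraries (SD, n = 3 each). Its log2 fold was -0.71 (SE 0.35; 95% interval -1.52 to 0.11; limma, adjusted p = 0.567, 0.466 to 0.822 over the alternatives). Permuting the libraries exactly gave a two-sided p = 0.2, where 3 against 3 libraries cannot go below 0.1. Without Control replicate 1 the log2 fold was -0.40, and without Control replicate 3 it was -0.98. It was not the largest under every choice: with a pseudocount of 10 it was -0.29, against -0.41 for miR-25-3p. Without GDE replicate 1 it was -0.50, against -0.53 for miR-25-5p and 0.51 for miR-363-3p. miR-25-3p averaged 233 ± 26.7 RPM in GDE and 320.03 ± 94.2 RPM in Control, with a log2 fold of -0.42 (SE 0.25; 95% interval -0.998 to 0.16; limma, adjusted p = 0.621; exact permutation p = 0.3). Without Control replicate 1 it was -0.23, and without Control replicate 3 it was -0.68.

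miR-93-5p was measured most precisely, at 3053 ± 249 RPM over GDE libraries and 3480.1 ± 518 RPM over Control libraries, and its log2 fold was -0.18 (SE 0.12; 95% interval -0.46 to 0.10; limma, adjusted p = 0.643; exact permutation p = 0.3). Without Control replicate 1 it was -0.07, and without Control replicate 3 it was -0.28. For miR-106b-5p the log2 fold was -0.15 (95% interval -0.70 to 0.41; limma, adjusted p = 0.901), and without Control replicate 1 it was 0.00. The passengers miR-25-5p at -0.22, miR-93-3p at 0.06 and miR-106b-3p at 0.00 had 95% intervals reaching at least 0.49 to either side. miR-363-3p had a positive log2 fold of 0.25 (SE 0.27; 95% interval -0.38 to 0.88; limma, adjusted p = 0.805). It ranged between 0.11 without Control replicate 3 and 0.51 without GDE replicate 1. miR-18b-5p stood at -0.07 (95% interval -0.86 to 0.71; limma, adjusted p = 0.989).

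**Figure D3:**
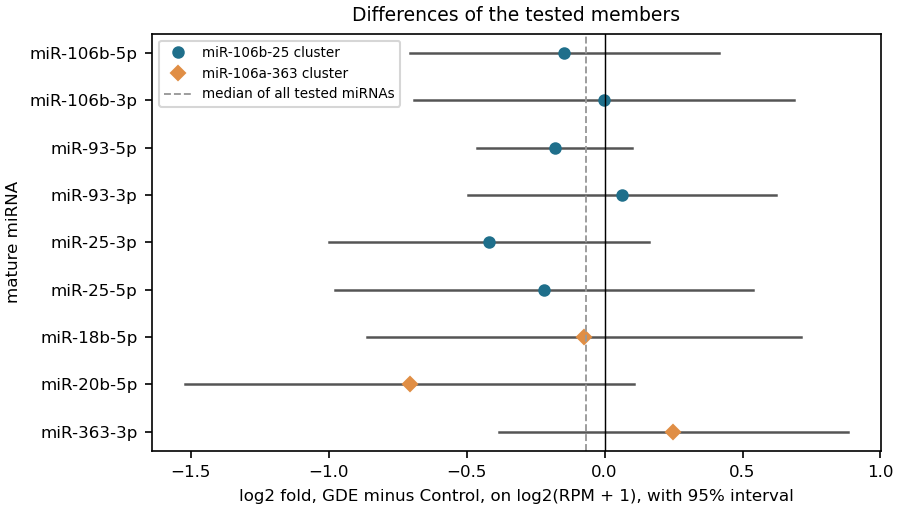
Log2 fold of GDE minus Control for the 9 tested members, on the log2(RPM + 1) scale, with 95% intervals from limma; circles are Mcm7 cluster members, diamonds X cluster members, and the dashed line is the median of all 649 tested miRNAs. Every interval contains 0.

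Control replicate 1 was the highest library for 7 of the 9 tested members, and for 41.4% of all 649 tested miRNAs. The exceptions were miR-106b-3p, highest in Control replicate 2, and miR-363-3p, highest in GDE replicate 3. Levels of these members in Control therefore rested partly on 1 library, whose place among the others was not tested further.

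The 2 clusters were compared within libraries through 3 pairs of miRNAs with the same seed, where the scaling nearly cancels. On log2(RPM + 1), miR-106b-5p over miR-106a-5p was 7.42 ± 0.297 in GDE and 7.33 ± 0.103 in Control, and follows miR-106b-5p alone, since miR-106a-5p was far under the pseudocount of 1 RPM. miR-93-5p over miR-20b-5p was 9.35 ± 0.588 in GDE and 8.82 ± 0.363 in Control, a difference of 0.52. miR-25-3p over miR-363-3p was 5.65 ± 0.491 in GDE and 6.31 ± 0.202 in Control, a difference of -0.67 (SD, n = 3 each). The groups overlapped for each pair, and exact two-sided permutation tests gave p = 0.8, 0.3 and 0.2, or 0.8, 0.45 and 0.45 after Benjamini-Hochberg adjustment over the 3 pairs. With 3 against 3 libraries these tests cannot go below 0.1, so no pair could have passed 0.05. With 1 library left out, the difference for miR-93-5p over miR-20b-5p was 0.28 at the lowest, when GDE replicate 1 was dropped, and 0.85 at the highest, when GDE replicate 3 was dropped; with a pseudocount of 10 it was 0.11. That for miR-25-3p over miR-363-3p was -0.93 and -0.44 on dropping the same libraries. So the groups of each pair overlapped, the tests could not decide on a difference, and the last 2 differences pointed in opposite directions.

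Of 13 other ratios between miRNAs of the same library, with the pseudocount used only for miR-106a-5p, 3 had groups that did not overlap, and these are given as values with no test. The 13 include a ratio added after the values were seen, given below. How often such ratios separate the groups over the whole table was not computed. Groups did not overlap for 14.6% of single tested miRNAs and for 8.39% of arm ratios. The first was miR-93-5p over its passenger, above. The second was miR-20b-5p over miR-363-3p, both from the X cluster, at 1.11, 0.755 and 1.23 in GDE and 2.98, 2.05 and 1.92 in Control. The third was miR-20a-5p over miR-20b-5p, at 233, 209.8 and 162 in GDE and 105, 104 and 129 in Control. miR-17-5p is as close in sequence to miR-20b-5p, also at 2 of 23 positions, and its ratio over miR-20b-5p was 71.7, 63.3 and 35.2 in GDE and 30.8, 33.1 and 50.4 in Control, where the groups overlapped; this ratio was added after the values were seen. miR-20b-5p, at 30 to 128 tags a library, enters the ratios with miR-363-3p, miR-20a-5p and miR-17-5p. It does not enter the ratio of miR-93-5p over its passenger. miR-363-3p rested on 26 to 56 tags.

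**Figure D4:**
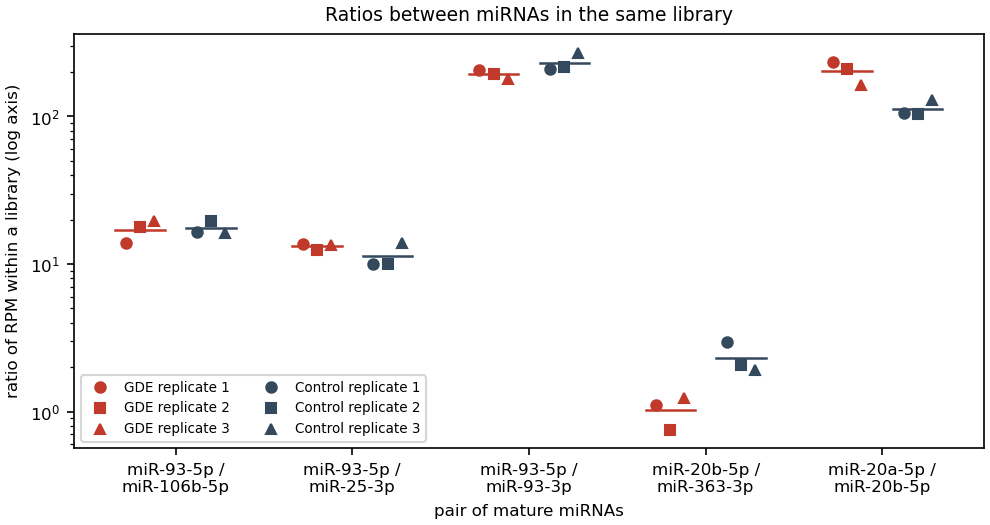
Ratios of RPM between pairs of miRNAs within each library on a log axis, GDE in red left of Control in dark blue, with lines at group means. miR-20b-5p over miR-363-3p lies at 0.755 to 1.23 in GDE and 1.92 to 2.98 in Control, whereas the ratios of miR-93-5p to miR-106b-5p and to miR-25-3p overlap between groups.

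The related miR-17-92 list, chosen as the remaining copy of the cluster, gave a similar picture. Of its 12 rows 11 were tested, and 0 passed the threshold in either direction in limma, with 0 at an unadjusted p under 0.05. Their log2 folds had a median of -0.08, with 3 positive and 8 negative. miR-17-5p averaged 198 ± 17.5 RPM in GDE libraries and 250.01 ± 66.9 RPM in Control libraries, with a log2 fold of -0.31 (95% interval -0.82 to 0.21). Of miR-20a-5p there were 739 ± 172 RPM in GDE libraries and 774 ± 302 RPM in Control libraries. miR-18a-5p had a log2 fold of -0.31 (95% interval -0.92 to 0.29), and miR-92a-3p, which the X cluster also encodes, had 0.19 (95% interval -0.52 to 0.90).

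The named miRNAs outside these clusters whose levels ran most like each cluster's sum were found by Pearson's r of log2 levels across the 6 libraries, among 542 candidates and as a description. For the Mcm7 cluster these were miR-301b-3p (r = 0.993), miR-219a-1-3p (r = 0.973) and miR-455-5p (r = 0.970), all highest in Control replicate 1. For the X cluster they were miR-384-5p (r = 0.957), miR-298-3p (r = 0.931) and miR-1981-5p (r = 0.919), also highest in Control replicate 1. With 6 libraries, 25 of the 542 candidates had an r over 0.9 with the Mcm7 sum and 9 with the X sum, and all values of a library share its scaling.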

How the data were processed

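TRIzol RNA of 6 NSC samples was turned into libraries with an MGIEasy small RNA kit, per the labels' protocols. The submitters' processing notes name Bowtie2 and mm10, with no version or role; trimming, counting rules and use of molecular identifiers are not given in any source used. Headers call the deposited values expression and name no unit; they were read as RPM, since 100% of nonzero values were whole multiples of 1 step per library (tolerance 0.1 tags). Per library, the deposited RPM add up to between 241370 and 277888. Groups came from the titles.

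limma 3.58.1 (R 4.3.3) with a trend was fitted to log2(RPM + 1), which understates the change of low miRNAs, for rows of at least 1 RPM in 3 libraries. Tests were two-sided, Benjamini-Hochberg threshold 0.05. The arm ratio was fitted likewise without a trend. Alternatives were edgeR 4.0.16, which called 2 miRNAs on recovered tags, DESeq2 1.42.0, limma-voom, scaling, pseudocount, filter, the replicate number as a block and each library left out. Fits were also run on simulated tags with known changes. These were drawn independently with the same spread setting for every miRNA, so they do not show how the fits behave when whole libraries shift. Named miRNAs were the members, their X cluster arms, miR-17-92, the top 3 of each seed, the 3 most alike in pattern and, as checks of the cells, examples from lists of cell type markers. Members and lists were chosen with earlier results of these data known.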

Additional observations from a re-analysis of the deposited data

How the results depend on the processing

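No member and no member precursor passed the threshold under any of the alternatives run. The lowest adjusted p was 0.466 among 172 values, each of 1 member or precursor under 1 alternative. miR-93-5p, miR-25-3p, miR-20b-5p, miR-363-3p and the arm ratio of miR-93 kept their direction throughout, but not their size. The log2 fold of miR-93-5p was -0.09 with TMM scaling, -0.08 in edgeR and -0.08 in limma-voom, against -0.18. That of miR-106b-5p was -0.0278 in edgeR, against -0.15. The median over all tested miRNAs was 0.01 with TMM scaling, -0.002 in edgeR and 0.03 in limma-voom, against -0.07. With at least 100 tags in 3 libraries 1 miRNA was called over the whole table, with DESeq2 5 and with limma-voom 1, against 2, and leaving out 1 library gave 2 to 3; with no filter 1 precursor was called for arm usage, against 0, and leaving out 1 library gave 0 throughout. The log2 fold of miR-106b-3p turned to 0.0645 when scaled to the tags in the table, 0.0937 with TMM, 0.0151 with a pseudocount of 0.1, 0.0321 in edgeR, 0.0242 in DESeq2 and 0.12 in limma-voom. That of miR-18b-5p turned to 0.0787, 0.12, 0.17 and 0.32 under the first 3 of these and limma-voom. Leaving out 1 library moved the log2 folds between -0.29 and 0.22 for miR-106b-3p, -0.46 and 0.14 for miR-18b-5p, -0.32 and 0.0319 for miR-106b-5p, -0.14 and 0.23 for miR-93-3p, and -0.53 and 0.0045 for miR-25-5p, and the log2 arm ratios between -0.46 and 0.10 for miR-106b and -0.10 and 0.49 for miR-25. The log2 ratio of miR-106b-5p over miR-106a-5p differed by 0.09 (GDE minus Control), by -0.11 with a pseudocount of 10, and by -0.0649 to 0.23 with 1 library left out. The log2 ratio of summed Mcm7 over X cluster RPM differed by 0.18, by -0.46 without the most abundant member of each cluster and by -0.14 to 0.50 with 1 library left out. The cause of these turns was not tested. The filter of 100 tags left no value for miR-106b-3p, miR-18b-5p, miR-20b-5p and miR-363-3p.

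Replicate numbers did not pair the libraries: deviations of same-numbered libraries correlated at -0.03, -0.12 and -0.03. A fit with the replicate number as a block called 2 miRNAs, none of them a member. Libraries of a group differed by more than sampling noise (chi-square per degree of freedom 47.2 to 173). This measures only the excess over counting error, so it cannot tell repeats of 1 sample from independent samples. Each library was counted as its own sample, per the design text. Depth limits the X cluster, where 1 tag is worth about 0.08 RPM.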
